A study of Mus musculus with 9 samples.

Results

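The 38 genes described here copy DNA, supply its nucleotides or rebuild chromatin behind the fork. They were taken by symbol from the 41128 genes of the table, and all 38 were found. RNA was sequenced from PCM-1-positive nuclei, which in the heart are those of cardiomyocytes, sorted from the left ventricle of 9 FVB mice at an age of 12 days. Control mice (C1 to C3) are labelled wildtype and, according to the paper's methods, carried a floxed and a wild-type Fstl1 allele without Cre. Unstressed cKO mice (U1 to U3) and cKO mice that were given a score of 1 for cardiac stress (S1 to S3, called stressed cKO mice here) were Fstl1 KO/fl;Tie2-Cre, with the score set by the weight of the heart relative to the body. Tie2-Cre is active in endothelium, endocardium and the cells that derive from them, so the cardiomyocytes sequenced here should have kept the floxed allele and carried the other as a knockout, as did the rest of the body. The title of U3 names it a heterozygous cKO although its genotype is entered as for the other cKO mice. The paper gives the control mice as female and the unstressed cKO mice as male, so sex and genotype cannot be told apart between these groups.

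DNA is replicated once per cell cycle, in S phase. The origin recognition complex, CDC6 and CDT1 load the MCM helicase, CDC45 and the GINS complex activate it, and polymerase alpha with primase starts each strand that polymerases epsilon and delta extend on the PCNA clamp. Many of these genes are transcribed as cells enter S phase, under control of E2F factors, and most mouse cardiomyocytes leave the cell cycle in the first weeks after birth.

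An E2F-type motif was searched for in RefSeq promoters (GRCm38.p6, 250 bases before to 50 after the start), on both strands, as TTTCCCGC, TTTCGCGC, TTTGCCGC or TTTGGCGC. Of the 38 genes, 32 had a promoter in the table, and 13 of these (40.6%) held the motif, against 2.61% of 27025 genes with a promoter. The CCAAT box, searched for as CCAAT on both strands, was in 20 of the 32 (62.5%), against 41.1% of all genes. Mcm4, Gins1, Gins2, Rfc2, Pole and Prim2 had no promoter in the table. In 9 genes the motif lay before a RefSeq start. For 6 of them (Cdc6, Hells, Mcm7, Orc1, Rfc3 and Uhrf1) the window around it reached into the gene as GENCODE M21 annotates it, from an earlier start. The windows of the other 3, which lie before both starts, are shown because they carry the motif upstream of the helicase genes Mcm5 and Mcm6 and of the polymerase gene Pola1. Each is read 5′ to 3′ along the gene's strand, with the motif in capitals. In Mcm5 and Mcm6 the capitals cover overlapping motifs on opposite strands.
Mcm5, chr8:75109330-75109389, plus strand: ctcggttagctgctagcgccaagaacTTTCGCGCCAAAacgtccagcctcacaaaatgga
Mcm6, chr1:128359782-128359841, minus strand: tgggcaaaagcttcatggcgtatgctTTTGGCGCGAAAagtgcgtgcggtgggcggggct
Pola1, chrX:93632260-93632319, minus strand: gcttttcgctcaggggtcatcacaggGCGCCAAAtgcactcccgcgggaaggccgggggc

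The libraries held 8262684 to 12698502 reads. The 38 genes took 0.0255 to 0.0412% of them, 2193 to 4457 reads per library, so most had few reads. Values are the deposited normalized counts, which are reads divided by 1 size factor per library, and 1 read was worth 0.850 to 1.18 of them. Summed markers of cardiomyocytes were at 2314010 to 3840350 in all 9 libraries, of which Ttn alone held 1868220 to 3206730. Sums were lower for endothelial and endocardial cells (1017 to 1717), fibroblasts (2100 to 3508) and smooth muscle cells and pericytes (5693 to 12534). Pcm1 itself was at 968 to 1491, so the sums follow single abundant genes and do not measure purity. U3 (3.84%) and S2 (3.81%) held more mitochondrial ribosomal RNA than the other 7 libraries (0.94 to 1.15% of reads). Titles carry different mouse numbers, so libraries were counted as separate mice. In bulk nuclei, fewer cells in cycle and less RNA per cell cannot be told apart.

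The 38 genes together reached a normalized count of 2591, 3006 and 2509 in controls, 2955, 3070 and 2603 in unstressed cKO and 3445, 3810 and 3581 in stressed cKO mice. All 3 stressed cKO mice lay above the 6 other mice, and the control and unstressed cKO mice overlapped. Genes of high level weigh most in this sum. The means in control and stressed cKO mice were 253 and 582 for Pole and 206 and 369 for Rfc1. Tk1, the highest gene, was at 593 and 547. How often a sum of other genes would separate the mice in this way was not tested. Of the 38 genes, 31 reached 10 normalized counts in 3 or more libraries and were tested with limma among the 13454 such genes. None of the 31 passed an adjusted p of 0.05 (Benjamini-Hochberg over all genes tested) in any of the 4 comparisons, where 0.0% of all genes passed in 3 comparisons and 0.00743% (1 gene) between stressed cKO and the 6 other mice. edgeR likewise called 0 of the 31, and the same shares of all genes. At an unadjusted p under 0.05, limma gave 3 genes higher and none lower between stressed cKO and control mice, against 4.38% and 3.29% of all genes. Between unstressed cKO and control mice it gave 0 higher, against 2.43% of all genes, and 1 lower, Pola1. DESeq2 was run on the recovered reads of only the groups compared, without the filter, where limma and edgeR used all 9 libraries. Its shares are over the 10362 to 14149 genes to which it gave an adjusted p. Against control mice it called Chaf1a, 1 of 23 of the listed genes with an adjusted p (0.386% of all such genes). Against the 6 other mice it called Chaf1a, 1 of 32 (0.53%). It called 0 of 29 between unstressed cKO and control mice (0.11%) and 0 of 32 between the cKO groups (0.252%).

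**Figure D1:**
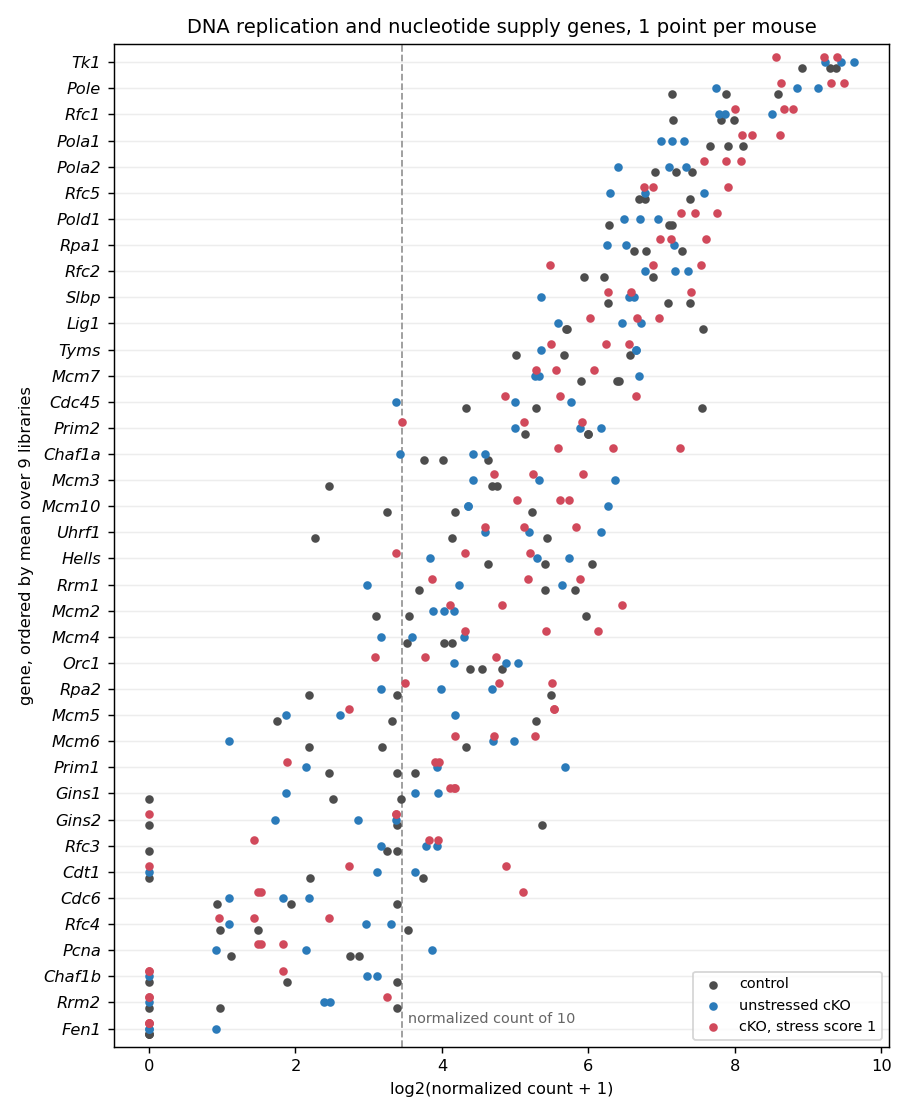
Normalized counts of the 38 genes on a log2(normalized count + 1) scale, 1 point per mouse (grey, control; blue, unstressed cKO; red, stressed cKO), ordered by the mean over 9 libraries; the dashed line marks a normalized count of 10. Tk1 lies highest and Fen1 at or next to 0, and the spread between mice widens toward the low genes.

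The median log2 fold change of the 31 genes between stressed cKO and control mice was 0.55, against -0.01 over all genes tested, and 24 of the 31 lay above 0, where 49.3% of all genes did. Between unstressed cKO and control mice the median was 0.01 and 16 lay above 0, against 51.0% of all genes. Against unstressed cKO mice it was 0.47 with 20 above 0 (48.8% of all genes), and against the 6 other mice 0.49 with 24 above 0 (49.0%). These comparisons share mice and are not independent of each other. Without a filter on low values, the median over all 38 genes against control mice was 0.34. Without C1 the median over the genes tested was 0.30.

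**Figure D2:**
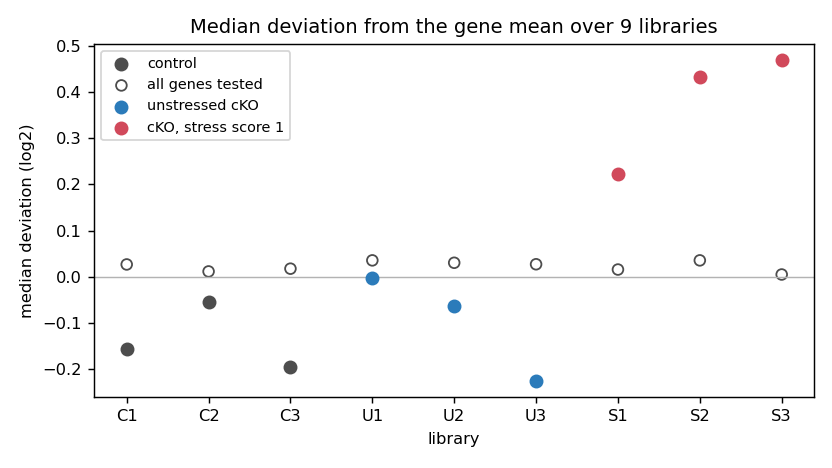
For each library, the median over the 31 genes tested of the deviation from the gene's own mean over 9 libraries (filled points; log2), beside the same over all genes tested (open points). The 31 genes lie at 0.22 to 0.47 in S1 to S3 and at -0.22 to -0.0032 in the other 6, whereas all genes lie between 0.01 and 0.04.

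Polymerase and primase genes made up the largest part of this sum in stressed cKO mice. They took 745 to 933 of the summed normalized count in controls, 657 to 986 in unstressed cKO and 1157 to 1513 in stressed cKO mice. Of these 6 genes, 3 lay above the control range in every stressed cKO mouse, namely Pole, Pola2 and Pold1. Over all 31 genes, 7 did so (the others were Mcm4, Gins1, Rfc1 and Chaf1a), against 5.8% of all genes tested, and 0 lay below it, against 5.28%. In unstressed cKO mice 0 of the 31 lay above it, against 5.19%.

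Pole, the catalytic subunit of the leading-strand polymerase epsilon, was at 234, 384 and 141 in controls, 563, 458 and 214 in unstressed cKO and 393, 721 and 633 in stressed cKO mice. Its levels with stress were above all control mice, but U1 and U2 were also high. The log2 fold change against control mice was 1.27 ± 0.39 (SE, n = 3 per group; limma adjusted p = 0.474, unadjusted p = 0.0043), and that of unstressed cKO mice was 0.71 ± 0.39 (adjusted p = 0.9996). The latter rested on single mice, at 0.34 without C3, 0.42 without U1, 1.07 without C2 and 1.12 without U3.

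Pola1, the catalytic subunit of polymerase alpha, was at 240, 201 and 275 in controls, 127, 156 and 140 in unstressed cKO and 300, 274 and 392 in stressed cKO mice. The 3 unstressed cKO mice were lowest, below all others, and S2 fell within the control range. The difference between the cKO groups was 1.17 ± 0.31 on the log2 scale (SE; limma adjusted p = 0.557, DESeq2 adjusted p = 0.0699), and Pola1 was the only one of the 31 genes whose unstressed cKO mice were below the control range, where 5.36% of all genes were. Unstressed cKO against control mice gave -0.75 ± 0.31 (unadjusted p = 0.0253, limma adjusted p = 0.9996), against 1.74% of all genes lower at an unadjusted p under 0.05. Pola1 lies on the X chromosome, and the paper gives these control mice as female and the unstressed cKO mice as male. The paper does not give the sex of the stressed cKO mice that were sequenced. A part of sex in these differences was not tested.

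Pola2, the regulatory subunit of polymerase alpha, was at 145, 170 and 119 in controls, 83.3, 161 and 136 in unstressed cKO and 235, 270 and 190 in stressed cKO mice. Pold1, the catalytic subunit of polymerase delta, was at 76.8, 140 and 137 in controls, 89.0, 103 and 122 in unstressed cKO and 216, 175 and 153 in stressed cKO mice. In both genes all mice with stress were above the 6 others, as were Mcm4, Gins1 and Chaf1a, 5 of the 31 genes against 1.72% of all genes, and 0 were below the 6 others, against 1.75%. Against the 6 other mice the log2 fold change was 0.79 ± 0.31 for Pola2 (SE; limma adjusted p = 0.545) and 0.72 ± 0.32 for Pold1 (adjusted p = 0.604). At an unadjusted p under 0.05, 7 of the 31 genes were higher in this comparison (Chaf1a, Pola1, Pola2, Pole, Mcm4, Pold1 and Rfc1), against 4.01% of all genes, and 0 were lower, against 4.07%.

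The primase genes, whose products lay down the RNA primer, overlapped between the groups. Prim1 was at 4.49 to 11.4 in controls, 3.42 to 50.2 in unstressed cKO and 2.71 to 14.5 in stressed cKO mice. Prim2 was at 34.1 to 62.7, 31.1 to 70.8 and 9.92 to 59.0 in the same order, with a log2 fold change of -0.88 ± 0.66 against control mice (SE; limma adjusted p = 0.798), -0.19 without S1 and -1.42 without S2. Whether they differ from the polymerases was not tested.

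**Figure D3:**
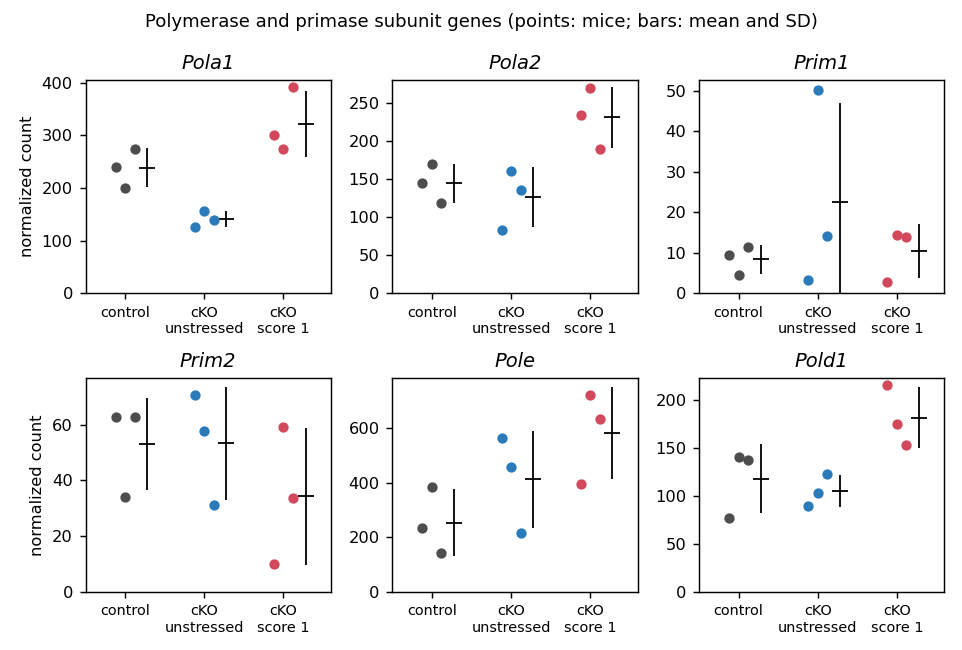
Normalized counts of the 6 polymerase and primase genes in each mouse (points) with the group mean and SD (bars, n = 3). In Pole, Pola2 and Pold1 the 3 stressed cKO mice lie above all control mice, in Pola1 the 3 unstressed cKO mice lie lowest, and in Prim1 and Prim2 the groups overlap.

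The MCM helicase, a ring of 6 subunits that unwinds DNA, had genes of low level, with a summed normalized count of 132 to 193 in controls, 141 to 181 in unstressed cKO and 180 to 271 in stressed cKO mice. S1 fell within the range of the other groups. Of the 6 genes, 5 had a log2 fold change above 0 against control mice and Mcm7 was at -0.60 ± 0.53 (SE; limma adjusted p = 0.832).

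Mcm4 was at 16.5, 15.3 and 10.5 in controls, 7.99, 11.1 and 18.6 in unstressed cKO and 18.9, 41.9 and 69.3 in stressed cKO mice. S1 was just above U3, so that the groups did not overlap by a narrow margin. Against the 6 other mice the log2 fold change was 1.504 ± 0.63 (SE; limma adjusted p = 0.569).

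Mcm3 was at 26.0, 4.49 and 24.7 in controls, 20.5, 81.6 and 39.0 in unstressed cKO and 37.0, 59.8 and 25.3 in stressed cKO mice. Both cKO groups had a mean above the control mean and overlapped with it, with log2 fold changes of 1.41 ± 0.76 for unstressed cKO mice (SE; limma adjusted p = 0.9996) and 1.33 ± 0.76 with stress (adjusted p = 0.724). Without C2, the lowest mouse, these were 0.65 and 0.58, and without U2 the first was 0.91. Mcm5 was at 2.36, 8.97 and 38.01 in controls, 17.1, 5.10 and 2.66 in unstressed cKO and 45.1, 45.3 and 5.62 in stressed cKO mice. S3 lay with the low mice, and the groups overlapped.

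Mcm2 reached 61.4 in C1 and 87.1 in S3 and was between 7.60 and 27.4 in the other 7 mice, so single mice of different groups set its means. Mcm6 was at 3.54 to 19.0 in controls, 1.14 to 30.6 in unstressed cKO and 17.1 to 37.5 in stressed cKO mice. A copy of Mcm7, Gm5487, shares 2157 bases at 97.7% identity, so reads of Mcm7 could be split between them.

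Genes that activate the helicase varied widely. Gins1, a GINS subunit, was at 4.73, 9.87 and 0 in controls, 11.4, 14.5 and 2.66 in unstressed cKO and 17.1, 16.2 and 16.9 in stressed cKO mice. The 3 mice with stress were close to each other and above the other 6, at levels of under 20 reads. The log2 fold change against control mice was 2.16 ± 1.08 (SE; limma adjusted p = 0.662), and 1.17 without C3, which was at 0, or 1.28 with a pseudocount of 5. Cdc45 was at 187 in C2 and at 9.35 to 99.1 in the other 8 mice, and Mcm10, which helps to start unwinding, at 8.55 to 36.6 in controls, 19.4 to 75.7 in unstressed cKO and 31.6 to 52.3 in stressed cKO mice, with U2 the highest of the 9.

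Helicase loading genes were low. Orc1 was at 20.0 to 27.2 in controls, 17.0 to 32.0 in unstressed cKO and 7.49 to 25.6 in stressed cKO mice. Cdc6 was at 33.3 and Cdt1 at 28.2 in S2, the highest of 9 mice for both, whereas the other 8 were at 0.90 to 9.45 for Cdc6 and 0 to 12.4 for Cdt1. In S1 and S3, Cdc6 was at 1.80 and 1.87 and Cdt1 at 0 and 5.62.

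The clamp loader, which places the PCNA ring on DNA, is made of RFC1 to RFC5. Rfc1 was at 142, 223 and 254 in controls, 363, 231 and 219 in unstressed cKO and 408, 256 and 444 in stressed cKO mice. All mice with stress were above the control mice, S2 narrowly (256 against 254 in C3), and U1 was also high. The log2 fold change was 0.84 ± 0.34 (SE; limma adjusted p = 0.596, unadjusted p = 0.0218).

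Rfc2 was at 60.3, 117 and 73.2 in controls, 108, 145 and 163 in unstressed cKO and 43.3, 117 and 185 in stressed cKO mice. Rfc5 was at 109, 167 and 103 in controls, 191, 108 and 77.2 in unstressed cKO and 238, 117 and 108 in stressed cKO mice. Neither gene separated the groups, and Rfc3 (0 to 14.4) and Rfc4 (0.94 to 10.6) were near the lower limit. Rfc2 shares 952 exon bases with Lat2, and a copy of Rfc5, Gm12870, shares 1020 bases at 96.2% identity.

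Pcna, the clamp itself, was at 0.89 to 13.6 in the 9 mice and did not pass the filter. A copy of it, Pcna-ps2, shares 781 bases at 99.2% identity and was itself at a mean of 1.43. How reads that match both were counted was not stated in the sources used here. Fen1, the nuclease that trims Okazaki fragments, was at 0 in 8 mice and had 1 read in U3. A count of 0 allows up to 3 reads per library, or 2.55 to 3.54 normalized counts, so no fold is given. Gm10143, annotated over 1909 of its exon bases, was at 0 to 3.42.

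Lig1, which seals Okazaki fragments, was at 50.8, 188 and 51.3 in controls, 104, 46.8 and 87.0 in unstressed cKO and 100.1, 124 and 63.7 in stressed cKO mice. Rpa1, the large subunit of the protein that coats single strands, was at 155, 97.8 and 109 in controls, 90.2, 143 and 75.4 in unstressed cKO and 139, 125 and 194 in stressed cKO mice. The groups overlapped in both genes and in Rpa2, which was at 3.54 to 44.2.

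The 4 genes of nucleotide supply overlapped between the groups, with a summed normalized count of 617 to 739 in controls, 709 to 850 in unstressed cKO and 479 to 807 in stressed cKO mice. Tk1, cytosolic thymidine kinase, had the highest level of the 38 genes, also per length (118 per kb of exon, against 46.8 for Rfc1 as the next). It was at 668, 482 and 631 in controls, 598, 788 and 697 in unstressed cKO and 594, 670 and 377 in stressed cKO mice. S3 was the lowest of the 9. The log2 fold change against control mice was -0.15 ± 0.27 (SE; limma adjusted p = 0.939), with its sign turned without S3 (0.10).

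Tyms, which makes thymidylate, was at 49.6, 94.2 and 31.4 in controls, 99.3, 40.0 and 99.4 in unstressed cKO and 74.9, 93.2 and 44.0 in stressed cKO mice. The subunits of ribonucleotide reductase differed from each other in level: Rrm1 was at 6.85 to 58.1 in the 9 mice and Rrm2, whose level is known to rise in S phase, at 0 to 9.45. Per kb of exon the means were 2.91 for Rrm1 and 1.11 for Rrm2. None of these genes separated the groups. A copy of Tyms, Tyms-ps, shares 534 bases at 96.4% identity.

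Chaf1a, the large subunit of the assembly factor CAF-1 that places histones on new DNA, was at 23.6, 12.6 and 15.2 in controls, 20.5, 23.0 and 9.76 in unstressed cKO and 152, 79.5 and 46.8 in stressed cKO mice. The mice with stress did not overlap with the 6 others, and S1 was the highest. limma gave a log2 fold change of 2.25 ± 0.67 against control mice (SE; unadjusted p = 0.0034, adjusted p = 0.474) and of 2.25 ± 0.56 against the 6 other mice (unadjusted p = 0.0007, adjusted p = 0.306).

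DESeq2 called Chaf1a in both of these comparisons, with 2.44 (adjusted p = 0.0371) and 2.42 (adjusted p = 0.0016). The call against the 6 other mice was lost without S1 (adjusted p = 0.168) and stood without each other mouse (adjusted p of 0.00075 to 0.0144). The call against control mice was lost without C1 (0.0541), C2 (0.206), C3 (0.236), S1 (0.433) or S2 (0.106), adjusted by DESeq2, and stood without S3 (0.0134). Without C2, DESeq2 called Pole instead (adjusted p = 0.0213).

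Of Chaf1a's 8854 exon bases, 4648 also lie in exons of Ubxn6, on the opposite strand, and whether strand was used in counting was not stated in the sources used here. Ubxn6 was at 189 to 259 in controls and 182 to 259 in stressed cKO mice, a log2 fold change of 0.04 against control mice (limma adjusted p = 0.995), whose sign changed between alternatives. Chaf1b, another subunit of CAF-1, was at 0 to 9.45 and did not pass the filter.

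**Figure D4:**
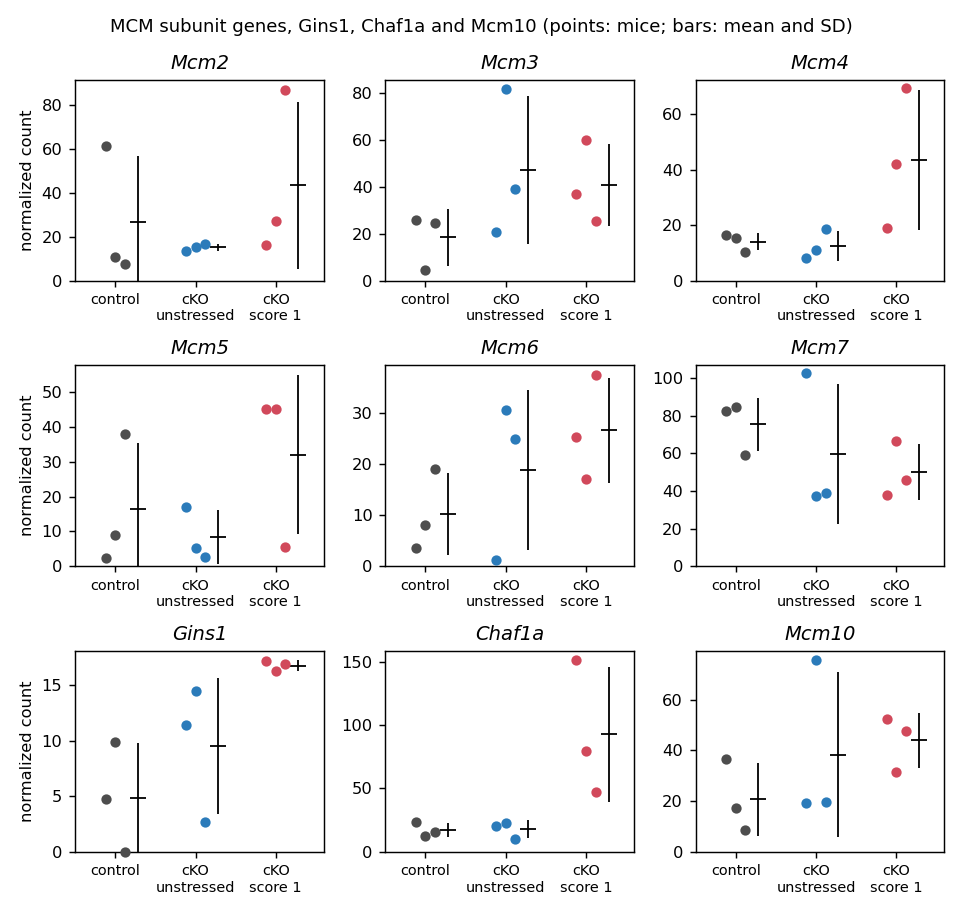
Normalized counts of the 6 MCM genes, Gins1, Chaf1a and Mcm10 in each mouse (points) with the group mean and SD (bars, n = 3). Chaf1a, Gins1 and Mcm4 have all 3 stressed cKO mice above the 6 other mice, and the other genes overlap.

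Uhrf1, which recruits the maintenance methyltransferase to new DNA, was at 16.5, 42.2 and 3.80 in controls, 35.4, 23.0 and 71.0 in unstressed cKO and 55.9, 23.1 and 33.7 in stressed cKO mice. Slbp, which binds the stem loop of histone mRNA, was at 135, 76.3 and 166 in controls, 39.9, 92.7 and 97.6 in unstressed cKO and 94.7, 76.1 and 169 in stressed cKO mice. Hells, a remodeller needed for DNA methylation, was at 23.8 to 65.5 in controls, 13.3 to 52.5 in unstressed cKO and 9.37 to 35.9 in stressed cKO mice, a log2 fold change of -1.06 ± 0.73 against control mice (SE; limma adjusted p = 0.784) that was -0.60 without S3. The groups overlapped in all 3 genes. A copy of Uhrf1, Gm5648, shares 1590 bases at 98.3% identity.

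**Figure D5:**
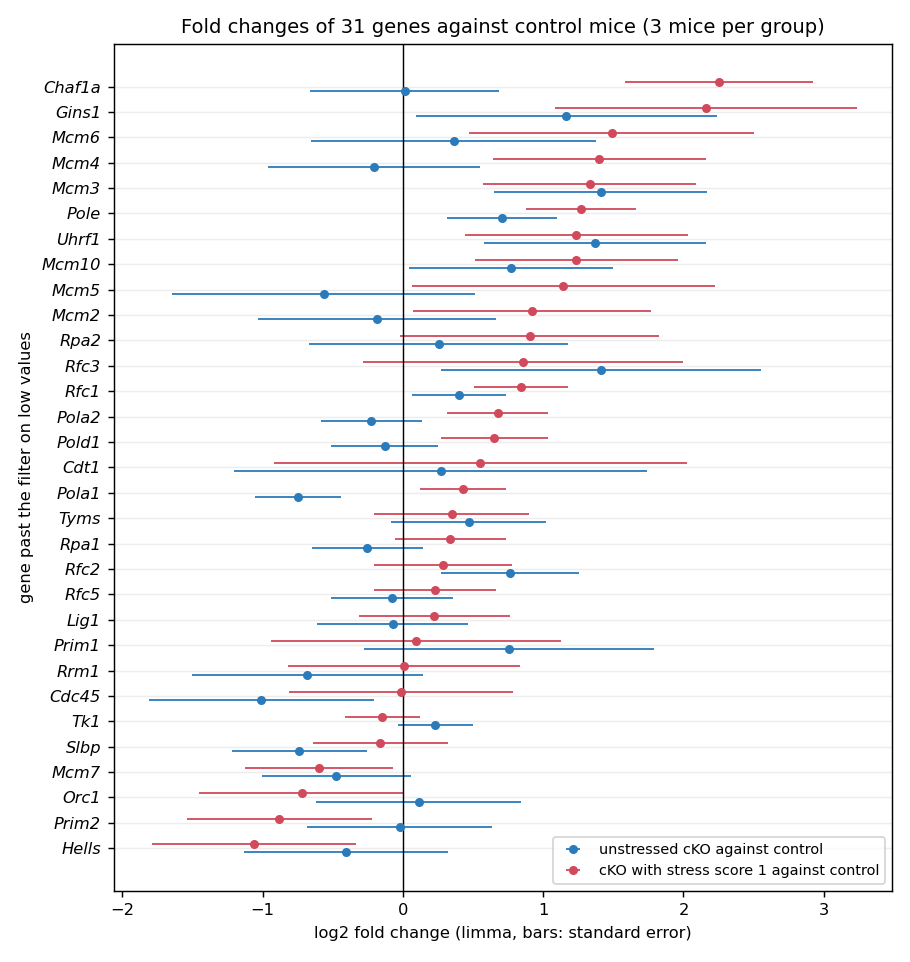
log2 fold changes (limma, bars: standard error) of the 31 genes tested, for stressed cKO mice (red) and unstressed cKO mice (blue) against the same 3 control mice. The red points range from -1.06 (Hells) to 2.25 (Chaf1a), 24 of 31 above 0, and the blue points lie on both sides of 0 (16 above).

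Against unstressed cKO mice, 4 of the 31 genes were higher with stress at an unadjusted p under 0.05 (Pola1, Chaf1a, Pola2 and Mcm4), against 3.08% of all genes, and 0 were lower, against 3.26%. All mice with stress were above the unstressed cKO mice in 6 of the 31 genes, against 5.31% of all genes, and below them in 0, against 6.04%. The genes that did not pass the filter were Cdc6, Gins2, Pcna, Rfc4, Fen1, Rrm2 and Chaf1b. Gins2 reached 40.4 in C2 and was at 0 to 9.45 in the other mice, and 2758 of its exon bases are shared with Gse1.

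By the numbers in their titles the mice form 2 series, of which the second holds C2, C3 and S3 and the first all others. Stressed and control mice are thus compared as S1 and S2 with C1 alone, and as S3 alone with C2 and C3. These differences were not computed over all genes tested. Within the first, the median log2 difference of the 31 genes between mice with stress and control mice was 0.74 (21 above 0), and within the second 0.58 (19 above 0). Chaf1a differed by 2.17 and 1.69 in the same order and Pole by 1.18 and 1.44, whereas Pold1 differed by 1.33 and 0.14.

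Of the 31 genes tested, 26 had a promoter in the table. The 12 with an E2F-type motif had a median log2 fold change of 0.60 against control mice (9 above 0), and the 14 without it 0.34 (11 above 0), a description with no test.

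Other genes of the same processes were counted in lists. Of 44 other replication factors, 41 were tested, with a median log2 fold change of 0.12 for stressed cKO against control mice. At an unadjusted p under 0.05 in limma, 4 were higher and 1 was lower, where 4.38% and 3.29% of all genes were. In this comparison 0 of them were called by limma, DESeq2 or edgeR, as in the lists that follow. Against the 6 other mice DESeq2 called 1 of them (0.53% of all genes with a DESeq2 adjusted p), Mms22l, which was named after its values were seen. The helicase gene Recql4 was at 2.79 ± 0.89 and the checkpoint mediator Clspn at 2.24 ± 0.93 on the log2 scale, Top2a, a topoisomerase of dividing cells, at 1.28 ± 0.48, and Pold3, a subunit of polymerase delta, at -1.23 ± 0.46 (SE; limma adjusted p = 0.474, 0.61, 0.58 and 0.58). Clspn was at 1.09 without C3 and Pold3 at -0.81 without C2. Pold3 was thus opposite in sign to Pold1. Recql4 and Clspn were also above control mice in unstressed cKO mice, at 2.07 ± 0.89 and 1.94 ± 0.93 (SE, limma adjusted p = 0.9996 for both). Of 32 other nucleotide supply genes, 29 were tested, with a median of -0.22, 0 higher and 2 lower, the p53-inducible reductase subunit Rrm2b at -1.37 ± 0.58 and the purine synthesis gene Paics at -0.99 ± 0.44 (limma adjusted p = 0.62 and 0.634), the latter -0.60 without C1. Impdh1, of guanine nucleotide synthesis, was at -1.43 ± 0.68 and Mthfd1, of folate metabolism, at 0.69 ± 0.33 (limma adjusted p = 0.653 for both), and Impdh1 at -2.14 without C1.

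Of 16 other chromatin replication genes, 14 were tested, with a median of -0.28, 1 higher and 0 lower. The higher one was Dnmt1, the maintenance methyltransferase, at 0.86 ± 0.34 (SE; limma adjusted p = 0.589), and Asf1a, Dnajc9 and Rbbp4, which handle histones, were at -1.78 ± 0.96, -1.37 ± 0.92 and -0.49 ± 0.35 (limma adjusted p = 0.71, 0.777 and 0.798). Dnmt1 was at 0.53 without S2, Asf1a at -1.15 without S3 and Dnajc9 at -0.83 without S1. Of 12 proliferation markers, 10 were tested, with a median of 0.85 (7 above 0) and 2 higher, Mki67 and Top2a, the latter also listed above. For unstressed cKO against control mice the median was 0.54, also with 7 above 0. For stressed cKO against the 6 other mice it was 0.18, with 10 above 0. The summed level of these markers, of which Mki67 was the largest part, was 311 to 990 in controls. It was 656 to 1089 in unstressed cKO and 1148 to 1371 in stressed cKO mice. Mki67, the Ki-67 gene, was at 150, 613 and 293 in controls, 512, 385 and 460 in unstressed cKO and 666, 814 and 944 in stressed cKO mice. These did not overlap with the others, with a log2 fold change against control mice of 1.41 ± 0.37 (SE; limma adjusted p = 0.474) that was 0.92 without C1. E2f1 was at 1.07 ± 0.84 and the mitotic kinase Bub1 at 1.85 ± 1.04 (limma adjusted p = 0.804 and 0.72), and at 0.70 without S1 and 1.23 without C1. Bub1 was highest in unstressed cKO mice, at 20.5, 16.2 and 46.1, against 9.02, 15.4 and 2.81 in stressed cKO mice. Its log2 fold change was 3.45 ± 1.04 for unstressed cKO against control mice (SE, limma adjusted p = 0.9996). For stressed against unstressed cKO mice it was -1.60 ± 1.04 (SE, limma adjusted p = 0.858).

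Markers of other cells moved in part with the sum of the 38 genes. Of the 10 cardiomyocyte markers, 0 had a log2 fold change above 0 between stressed cKO and control mice (median -0.12, 2 lower at an unadjusted p under 0.05, 0 called by limma, DESeq2 or edgeR), where 49.3% of all genes did. The 10 endothelial and endocardial markers summed to 1017 to 1334 in controls, 1247 to 1531 in unstressed cKO and 1389 to 1717 in stressed cKO mice, and all 10 had a log2 fold change above 0 against control mice (median 0.41, 1 at an unadjusted p under 0.05, 0 called by limma, DESeq2 or edgeR). The 10 fibroblast markers summed to 2123 to 2509, 2292 to 2991 and 2100 to 3508 in the same order, with S3 the lowest of the 9, and the 4 epicardial markers to 113 to 134, 120 to 133 and 142 to 291. Smooth muscle and pericyte markers (9 genes) were at 10280 to 10828 in control mice and 5693 to 12534 with stress. The leukocyte markers found (8 of 9) were at 132 to 261 in control mice and 116 to 121 with stress, and 2 of 6 erythroid markers were at 0 in all mice. Their part in the levels of the replication genes was not tested.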

How the data were processed

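The authors mapped single reads of 50 bases to mm10 with STAR and used DESeq2, per the paper and the labels. Their versions, the annotation, the counting program and whether strand was used: not given in the sources used here. Per the labels and the values, the deposited signal is a normalized count, the reads of a gene over a size factor of its library. Dividing by the value of 1 read gave whole numbers for 100% of values above 0 (tolerance 0.001), so reads were recovered for DESeq2 1.42.0 and edgeR 4.0.16. Genes with at least 10 in at least 3 libraries (13454 of 41128) were tested with limma 3.58.1 (R 4.3.3; trend, two-sided) on log2(normalized count + 1), Benjamini-Hochberg 0.05, with the 3 groups fitted together or stress score 1 against the 6 other mice. Fold changes of low genes differed between this scale and the count models, in both directions. Against control mice, limma, DESeq2 and edgeR gave 2.16, 1.78 and 1.74 for Gins1 and 1.40, 1.63 and 1.61 for Mcm4. The limma step was first tested on simulated data. Depth was 8262684 to 12698502 reads, and intervals cover the spread between mice only. p-values weigh a difference between groups against the spread between these libraries. Positions and overlaps are from GENCODE M21, and promoters from RefSeq (GRCm38.p6). Genes named are the 12 with the highest mean and those with the 6 smallest p in each comparison, with values per library, and up to 4 of each other list. The members and lists were chosen with earlier results of these data known. Alternatives were other pseudocounts, filters, scalings, tools, samples and a covariate for the mouse number series.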

Additional observations from a re-analysis of the deposited data

How the results depend on the processing

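As limma called 0 of the 31 genes, none had a called result whose direction could change. Against control mice the log2 fold change of Tk1, -0.15, was -0.31 to 0.10 without single mice, and that of Ubxn6, 0.04, was -0.0347 with upper quartile scaling and -0.0865 to 0.174 without single mice. Leaving out 1 mouse moved 21 of the 45 fold changes of single genes by over 1.5 times. No paired analysis was possible because the labels give no replicate numbers that groups share. The DESeq2 fits without single mice were added after seeing the data. Stress score 1 against control: the median log2 fold change of the genes tested, 0.55, was 0.42 with a pseudocount of 5, 0.34 without a filter and 0.29 at a minimum of 50 (15 genes), and 0.30 to 0.66 without single mice. Genes called over the whole table, 0, were 40 by DESeq2, 1 with only the groups compared and 0 to 3 without single mice; of the 38 genes, DESeq2 called 1, and 0 to 1 without single mice. Unstressed cKO against control: the median, 0.01, was -0.12 to 0.22 without single mice and 0.19 without U3 and S2 together, and genes called, 0, were 3 with a pseudocount of 5, 14 by DESeq2, 4 with only the groups compared, 4 with the mouse number series and 0 to 4 without single mice. Stress score 1 against unstressed cKO: the median, 0.47, was 0.30 without a filter and 0.30 to 0.67 without single mice, and genes called, 0, were 35 by DESeq2 and 0 to 5 without single mice. Stress score 1 against the 6 other mice: the median, 0.49, was 0.27 at a minimum of 50, 0.31 by DESeq2, 0.30 by edgeR and 0.45 to 0.63 without single mice, and genes called, 1, were 75 by DESeq2, 4 with the mouse number series, 2 with a pseudocount of 5 and 0 with a pseudocount of 0.5, without a filter, with TMM, library total or upper quartile scaling and without U3 and S2 together, and 0 to 3 without single mice; of the 38 genes DESeq2 called 1, and 0 to 1 without single mice. The causes were not tested. Genes with under 20 reads per library limit what can be seen.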
